A study of Mus musculus with 4 samples.

Results

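The subject is a set of 10 imprinted genes of growth control in mouse progenitor cells: Mest, Peg3, Zim1, Plagl1, Peg10, Sgce, Asb4, Ndn, Grb10 and Nnat. They were chosen by name, with the difference between the libraries of this study already known, so their levels are a description and carry no test. The deposited table holds 23930 amplicons and 9 of the 10 genes; the expression of Nnat was not analysed here, and only its promoter window was searched.

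The libraries came from progenitor cells of subcutaneous tissue of C57BL/6 mice with a floxed Gnas gene. Gnas encodes the stimulatory G protein alpha subunit, which turns on adenylyl cyclase. The mutant group (2 libraries, mutant 1 and mutant 2) was given an adenovirus with Cre recombinase, labelled Ad-Cre, and has the genotype label Gnas-/-. The control group (2 libraries, control 1 and control 2) was given the same kind of virus with green fluorescent protein, labelled Ad-GFP, and has the genotype label wild type. Cells of both groups were then held in osteogenic medium for 7 days. The Cre virus acts in whatever cells it enters, no separate control for Cre is among these libraries, and loss of Gnas cannot be told apart from the effect of the virus. The labels name no mouse or culture for any library, so the spread and the p-values measure only how these libraries vary. How much of that spread is technical was not tested. Controls 1 and 2 differed in the sex-linked RNA Xist, at 164.501 and 0 RPM.

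An imprinted gene is read mainly from the allele of a single parent, owing to marks, mostly DNA methylation, set in the egg or the sperm. Many such genes act on fetal growth, are abundant in embryonic mesenchyme and placenta, and fall to low levels in most tissues after birth. Mest, Peg3, Plagl1, Peg10, Sgce, Ndn and Nnat are read from the paternal allele, while Zim1, Asb4 and, outside neurons, Grb10 are read from the maternal allele. An amplicon counts the reads of both alleles together, so the parental origin of the RNA was not measured.

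To show what the members share in sequence, the RefSeq promoter windows (GRCm38.p6) were searched on both strands for TGCCGC, the hexamer bound by the imprint-keeping zinc finger protein ZFP57 when methylated. Windows of 300 bases were at hand for 8 of the 10 genes, 12 windows in all, reaching from 250 bases before a transcript start to 50 after it. The hexamer lay in a window of 5 of the 8 genes and in 6 of the 12 windows, of which 2 are Mest windows that overlap nearly in full and hold the same matches. It lies in 11.6% of the 32851 windows of the whole table. The stretches that follow run 5′ to 3′ on the strand of the gene, with the motif match in capitals; GCGGCA is the hexamer read on the opposite strand. The Mest stretch is the 250 bases before an internal start of the gene (chr6:30737800-30738049, plus strand), and it holds 2 matches.
Mest: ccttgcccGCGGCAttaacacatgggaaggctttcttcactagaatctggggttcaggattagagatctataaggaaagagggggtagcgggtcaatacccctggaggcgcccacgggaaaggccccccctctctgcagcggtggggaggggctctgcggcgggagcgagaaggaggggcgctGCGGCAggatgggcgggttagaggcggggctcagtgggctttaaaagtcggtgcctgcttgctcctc
For the other 4 genes the match is shown with 11 bases on each side: Zim1 at chr7:6696436-6696463 (minus strand), Plagl1 at chr10:13090731-13090758 (plus strand), Grb10 at chr11:12037380-12037407 (minus strand) and Nnat at chr2:157560094-157560121 (plus strand).
Zim1: aaagtcatcccGCGGCAttccactccgg
Plagl1: tggcgtgttgcGCGGCAaagcccacggc
Grb10: ggtgcggggagGCGGCAggaagggaagg
Nnat: ccaccggggctGCGGCAttgcgcccagc
The Peg3 window held no ZFP57 hexamer but did hold TGACGTCA, the palindrome bound by the cAMP-responsive factor CREB, at chr7:6730579-6730608 (minus strand).
Peg3: actgactccgtTGACGTCAactccgtgcct
That palindrome lies in 1.79% of all windows. The letters CGCCATNTT (YY1, in 2.38% of all windows), GACCACCCA (GLI, 0.253%) and the PLAG family motif (8.46%) were in 0 of the 12 windows. CpG counts ran from 6 in an Asb4 window to 45 in a Grb10 window, against a median of 7 over all windows. A match describes letters in a window and is not a binding site.

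Values are in RPM, the reads of a gene's amplicon scaled to the same total in every library. The libraries held 17460018 and 14847959 reads in the mutants, against 18455811 and 13483518 in the controls, counted back from the deposited RPM. A level depends on how well an amplicon works, so levels are compared between libraries and not between genes. No row was named Gnas, so the genotype labels could not be checked on the targeted gene. All 9 measured of 10 stromal markers had reads in every library, with Cd34 at 0.054 RPM in control 1. They summed to 31400 and 34700 RPM in the mutants and 14600 and 19000 RPM in the controls, most of it from Col1a1 and Col1a2; 5 were higher in both mutants than in both controls, and 1, Dcn, was lower (471.248 and 316.205 RPM in mutants 1 and 2, against 524.821 and 759.817 RPM in controls 1 and 2). Of all genes tested, 30.6% were higher in both mutants than in both controls and 21.1% were lower. Control 2 stood apart. The 12 macrophage markers summed to 26.3 and 14.8 RPM in mutants 1 and 2, against 46.7 RPM in control 1 and 964 RPM in control 2. Xist, the RNA that silences an X chromosome in females, stood at 395 and 419 RPM in mutants 1 and 2, against 165 RPM in control 1 and 0 in control 2. The 4 Y-linked genes were all lower in both mutants than in both controls, so differences between donor mice cannot be told apart from the group difference. Lists for other cells summed to 18.3 and 36.7 RPM in the mutants against 10.3 and 85.6 RPM in the controls (endothelial), to 15.5 and 31.6 against 8.18 and 30.3 RPM (fat cell) and to at most 1.26 RPM in any library (keratinocyte). They summed to 42.8 and 116 RPM in the mutants against 58 and 114 RPM in the controls (skeletal muscle, with Myod1, Pax7 and Ckm at 0 everywhere), and to 68.6 and 60.9 against 33.4 and 39.1 RPM (Schwann and neural, with Sox10 at no more than 0.297 RPM and Snap25 at 0). In limma 0 of the 9 stromal, 6 macrophage and 5 sex-linked genes tested passed. At an unadjusted p below 0.05, limma had 2 stromal genes higher, 2 macrophage genes lower and 4 sex-linked genes lower. Over all 11638 genes it had 1380 higher and 700 lower. On whole reads edgeR called 0, and DESeq2 called 1 stromal gene higher, 4 macrophage genes lower and 3 sex-linked genes lower. The macrophage genes Tyrobp, Fcer1g and Ctss passed the filter through the controls alone. They had to be lower in the mutants, so the macrophage counts are a description. Of the 5 endothelial, 2 muscle, 2 fat cell and 2 neural genes tested, 0 passed in limma or edgeR (1 neural gene was higher at an unadjusted p below 0.05), and DESeq2 called 1 neural gene higher. Without control 1 or control 2 the calls in these lists shifted. Such a fit leaves a single control, and nothing is read from its counts. In bulk RNA, a change in the share of a cell type and a change of RNA per cell cannot be told apart.

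Of the 9 measured members, 8 were higher in both mutant libraries than in both controls, and only Asb4 overlapped. The same order held for 30.6% of the 11638 genes tested, and since the members were chosen on this difference nothing is read from their count. Mest, Plagl1, Zim1 and Peg3 stood 23.9 to 380 times higher in the mutants as ratios of mean RPM, Peg10 3.82 times, Grb10 2.41 times, Sgce 1.92 times and Ndn 1.68 times. All 9 passed the filter of at least 1 RPM in at least 2 libraries, but Plagl1 and Zim1 passed it through the mutant libraries alone. Without control 2, the log2 fold changes given below became 9.19 for Mest, 5.58 for Plagl1, 4.08 for Peg3, 2.91 for Zim1, 1.30 for Peg10, 1.21 for Grb10, 0.57 for Sgce and 0.54 for Ndn. The plot of levels by library shows how far apart the groups lie for the first 4.

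**Figure D1:**
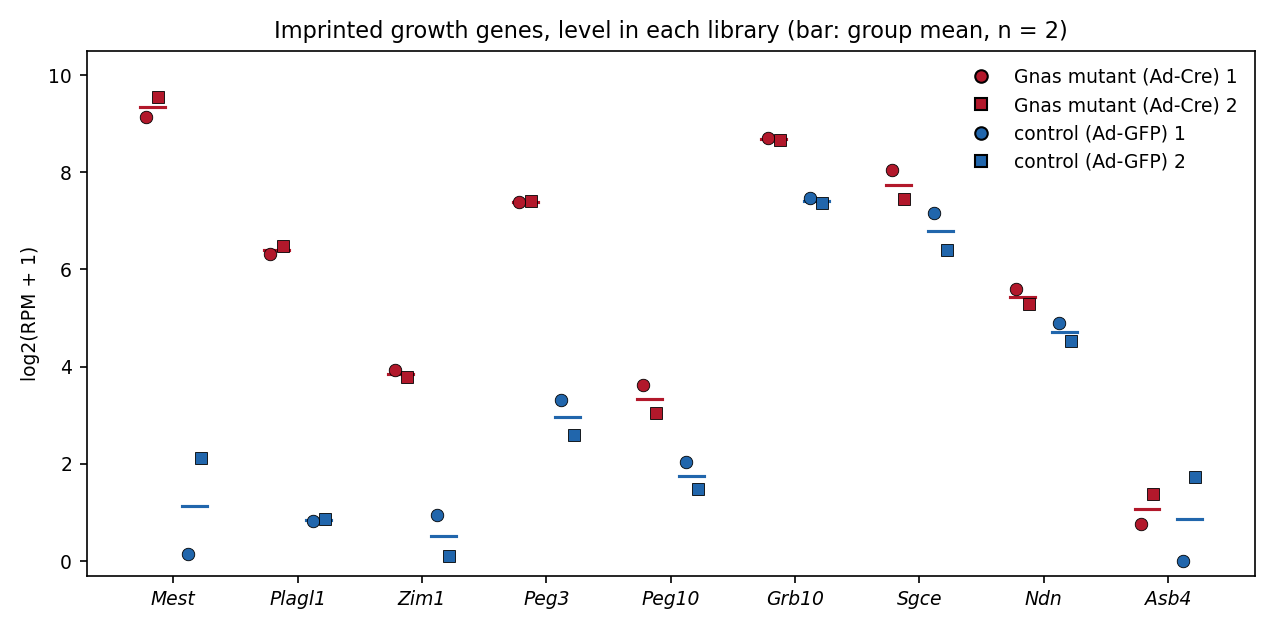
Level of each measured member as log2(RPM + 1) in mutant 1 and 2 (red) and control 1 and 2 (blue), with bars at the group means (n = 2 libraries each). The mutant libraries lie above both controls for 8 of the 9 genes, and the groups overlap for Asb4.

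Mest, whose product is an enzyme-like protein of the alpha/beta hydrolase fold linked to fetal growth and fat expansion, had the widest difference. It stood at 561.798 RPM in mutant 1 and 745.894 RPM in mutant 2, against 0.108 RPM in control 1 and 3.337 RPM in control 2. These rest on 9809 and 11075 reads in the mutants and on 2 and 45 reads in the controls, and the exact 95% counting interval of control 1 runs from 0.0131 to 0.391 RPM. The mutants differed from each other by a factor of 1.33 and the controls by a factor of 30.9. The group means were 654 ± 130 and 1.72 ± 2.28 RPM (mutant and control, SD, n = 2 libraries each), and the log2 fold change on the log2(RPM + 1) scale was 8.21 (SE 0.66). Against the higher control alone, control 2, the mutant mean was still 196 times higher. Mest lies on chromosome 6 at 30733506 to 30748466 (GRCm38.p6, as for all gene positions here, which are those of the gene and not of the amplicon).

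The zinc finger genes come next. Plagl1, also called Zac1, encodes a transcription factor that arrests the cell cycle and is known in mouse as a regulator of other imprinted genes. It stood at 78.465 and 87.824 RPM in mutants 1 and 2, against 0.759 and 0.816 RPM in controls 1 and 2. The libraries of a group were close: the mutants differed by a factor of 1.12, and the controls, with 14 and 11 reads, by a factor of 1.08. The ratio of means was 106 and the log2 fold change 5.55 (SE 0.29). The lowest mutant was 96.2 times the highest control, so either control gave nearly the same size of difference. Plagl1 lies on chromosome 10 at 13090832 to 13131694.

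Peg3 encodes a large zinc finger protein that in mouse is tied to fetal growth and maternal behaviour. It stood at 165.406 and 168.441 RPM in mutants 1 and 2, against 8.94 and 5.043 RPM in controls 1 and 2. The mutants were nearly alike, within a factor of 1.02, while the controls differed by a factor of 1.77. Group means were 167 ± 2.15 and 6.99 ± 2.76 RPM (mutant and control), and the log2 fold change was 4.44 (SE 0.31). The fold against control 1 alone was 18.7, and against control 2 alone 33.1.

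Zim1, a zinc finger gene 7.35 kb from Peg3 on chromosome 7, is read from the opposite parental allele. It stood at 14.261 and 12.729 RPM in mutants 1 and 2, against 0.921 and 0.074 RPM in controls 1 and 2. The last value is a single read, so the factor of 12.4 between the controls rests on 17 reads and 1 read. The lowest mutant was 13.8 times the highest control, and the log2 fold change was 3.33 (SE 0.42). Peg3 at 6703892 to 6730462 and Zim1 at 6674444 to 6696540 were thus both higher in the mutants, although imprinting reads them from different parents.

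Peg10 and Sgce stand head to head on chromosome 6, with 0.102 kb between them, and share an imprinted control region. Peg10 derives from a retrotransposon and is needed in mouse for the placenta. It stood at 11.397 and 7.206 RPM in mutants 1 and 2, against 3.088 and 1.78 RPM in controls 1 and 2, a ratio of means of 3.82 (log2 fold change 1.58, SE 0.40). Sgce encodes epsilon-sarcoglycan, a membrane protein of the complex that binds the cell to its matrix. It stood at 261.798 and 173.222 RPM in mutants 1 and 2, against 142.99 and 83.509 RPM in controls 1 and 2. Its groups were close: the lowest mutant was 1.21 times the highest control, while the mutants differed by a factor of 1.51 and the controls by 1.71 (log2 fold change 0.96, SE 0.36). Both genes were higher in mutant 1 than in mutant 2 and higher in control 1 than in control 2.

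Grb10 encodes an adaptor that binds the insulin and IGF1 receptors and damps their signal. It stood at 415.12 and 401.739 RPM in mutants 1 and 2, against 175.5 and 163.459 RPM in controls 1 and 2. The difference was modest but the libraries of a group were close, within a factor of 1.03 for the mutants and 1.07 for the controls. The ratio of means was 2.41 and the log2 fold change 1.26 (SE 0.20). Ndn, a MAGE family gene of the Prader-Willi region that restrains cell growth, stood at 47.594 and 37.85 RPM in mutants 1 and 2, against 28.826 and 21.953 RPM in controls 1 and 2. Its ratio of means, 1.68, compares with factors of 1.26 between the mutants and 1.31 between the controls (log2 fold change 0.73, SE 0.27).

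Asb4, which encodes a substrate-binding subunit of a ubiquitin ligase, was the member whose groups overlapped. It stood at 0.687 and 1.616 RPM in mutants 1 and 2, against 0 and 2.299 RPM in controls 1 and 2. Control 1 had no read, which by the floor of 3 reads allows up to 0.163 RPM, and the other libraries had 12, 24 and 31 reads. The control values bracket both mutants, and the means were both 1.15 RPM. The controls differed from each other by more than the mutants did, so no group difference can be read from these values. Asb4 lies on chromosome 6 at 5383386 to 5433022, in the same imprinted region as Peg10 and Sgce.

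**Figure D2:**
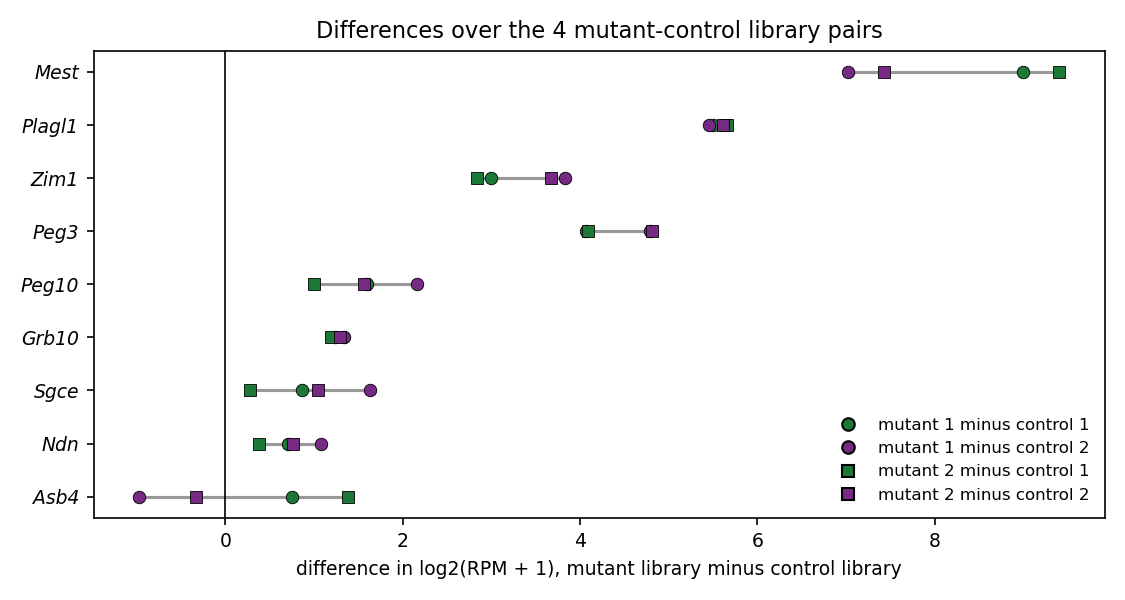
Difference in log2(RPM + 1) between each mutant and each control library, for the 9 measured members; shape gives the mutant library and colour the control library. All 4 differences are above 0 for 8 members and Asb4 has 2 on each side, while the spread along Mest and Zim1 follows the control library used.

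The members did not vary in step among libraries of a group. In the mutants, 5 members were higher in mutant 1, and 4 (Mest, Peg3, Plagl1 and Asb4) in mutant 2. In the controls, 6 were higher in control 1, and 3 (Mest, Plagl1 and Asb4) in control 2, the library with the most macrophage RNA. Over all genes tested, the median absolute difference in log2(RPM + 1) was 0.228 between the mutants and 0.433 between the controls. For mutants 1 and 2 it was 0.413 and 0.425 against control 1, and 0.507 and 0.476 against control 2. Control 1 thus differed from control 2 about as much as from the mutants. The summed macrophage markers were lowest in the mutants and 8 members were highest there. Single markers differed from the sum: Csf1r overlapped (2.005 and 1.684 RPM in mutants 1 and 2, against 1.084 and 14.907 RPM in controls 1 and 2), and C1qa had reads in the mutants alone (0.172 and 0.135 RPM). The part of cell makeup in the members' differences was not tested.

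The members' nearest genes show whether a difference ran along the chromosome. The 3 nearest measured genes on each side of each member gave 42 genes that are not members, of which 18 passed the filter. Of these 18, 1 rose, 0 fell and 17 did not pass (limma, adjusted p below 0.05; 6 of the 18 were higher and 0 lower at an unadjusted p below 0.05). On whole reads edgeR called 1 higher and DESeq2 4, and both called 0 lower. Over all 11638 genes tested, limma called 1.73% higher and 0.576% lower, in numbers 201 and 67. At an unadjusted p below 0.05 it had 1380 higher and 700 lower. EdgeR on whole reads called 66 higher and 27 lower over all genes, and DESeq2 598 and 493.

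The riser was Peg3os, an RNA gene that overlaps Peg3. It stood at 80.298 and 75.701 RPM in mutants 1 and 2, against 5.798 and 2.299 RPM in controls 1 and 2 (log2 fold change 4.06, SE 0.41, limma adjusted p = 0.0229). The libraries are not stated to keep strand, so reads of Peg3 and of its overlapping partner cannot be told apart. Peg3 was chosen on this difference, so the p-value of Peg3os and the 1 rise among the neighbours are a description. Usp29, which starts 0.097 kb from Peg3 and runs the other way, was at 0 in every library, as was Zim3.

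Hymai, an imprinted RNA gene within the Plagl1 locus, stood at 1.375 and 3.233 RPM in mutants 1 and 2 and at 0 in both controls (limma adjusted p = 0.142). It passed the filter through the mutants alone, its fitted fold change depends on the pseudocount, and it passed by DESeq2 (adjusted p = 0.00308) and by limma without control 1 (adjusted p = 0.0482) but not by edgeR (adjusted p = 0.12). The other tested genes next to Plagl1 were at a log2 fold change of 0.10 (Sf3b5), 0.45 (Ltv1) and -0.84 (Stx11), none of which passed. Next to Mest, Copg2, which overlaps its 3′ end, stood at 41.81 and 43.104 RPM in mutants 1 and 2, against 36.357 and 34.487 RPM in controls 1 and 2 (limma adjusted p = 0.597). Within Grb10, LOC102631979 stood at 67.239 and 51.724 RPM in mutants 1 and 2, against 23.353 and 6.971 RPM in controls 1 and 2 (limma adjusted p = 0.151). Magel2, the MAGE gene beside Ndn, had no read in either mutant, against 0.217 RPM in control 1 and 0 in control 2. Sf3b5, Ltv1, Stx11, Copg2, Magel2, Usp29 and Zim3 were named after their values were seen.

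**Figure D3:**
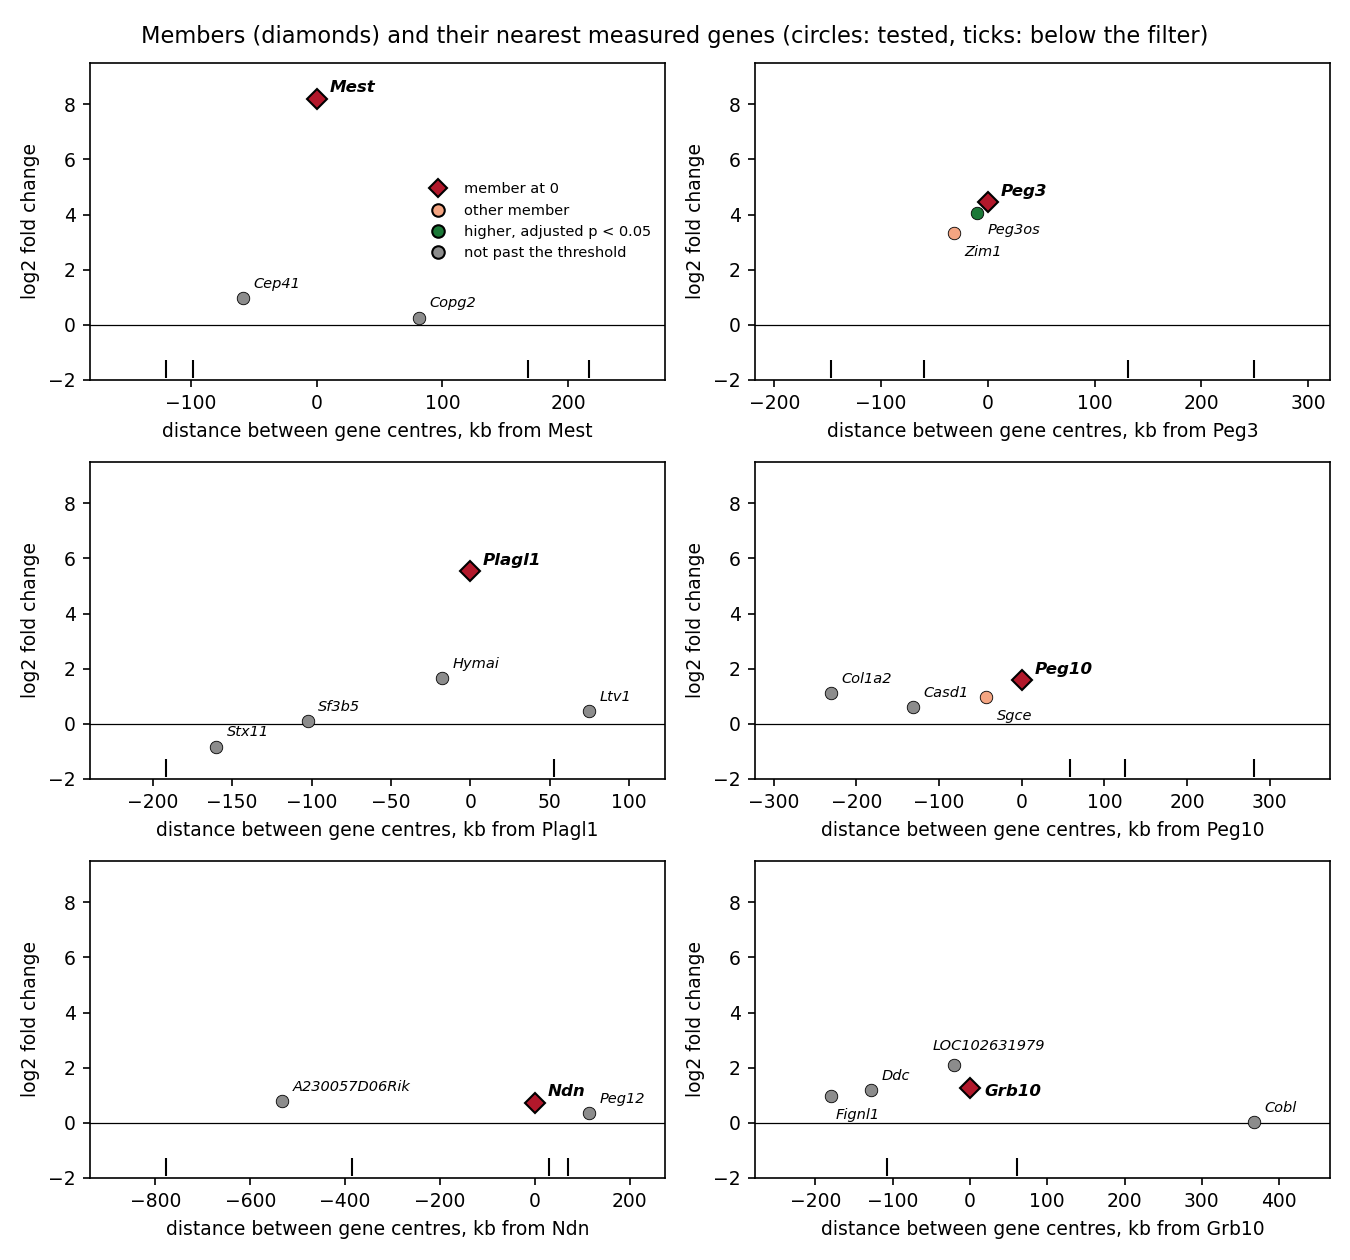
Log2 fold change (mutant over control, on log2(RPM + 1)) of 6 members (diamonds) and their nearest measured genes, against the distance between gene centres in kb; ticks mark genes below the filter. Next to Mest, Copg2 (0.26) lies far below the member; next to Plagl1, the place of Hymai, with no read in the controls, is set by the pseudocount; and at Peg3 the overlapping Peg3os (4.06) and Zim1 (3.33) lie close to it.

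The wider family was taken as 60 other genes known as imprinted in mouse, some of them only in placenta. Of these 55 were measured and 36 passed the filter; 5 rose (13.9%), 1 fell (2.78%) and 30 did not pass, beside 1.73% and 0.576% of all genes. Dlk1 and Igf2 were already known to be high when the list was made, and genes of a shared cluster are not independent. Both mutants stood above both controls for 19 of the 36, against 30.6% of all genes, and below them for 6, against 21.1%. The median log2 fold change was 0.37 over the list and 0.08 over all genes tested.

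Of the 36, Igf2 and Rasgrf1 passed the filter through the mutants alone and Tspan32 through the controls alone. Such a gene had to differ, so the shares above and the p-values of these genes are a description. The p-value of Dlk1 is likewise a description, as its level was known when the list was made. Dlk1, a membrane inhibitor of fat cell differentiation, stood at 350.343 and 895.679 RPM in mutants 1 and 2, against 0 and 3.189 RPM in controls 1 and 2 (log2 fold change 8.10, limma adjusted p = 0.0229). Igf2, the fetal growth factor, stood at 41.294 and 134.497 RPM in mutants 1 and 2, against 0.65 and 0.074 RPM in controls 1 and 2 (5.83, limma adjusted p = 0.0249). Cdkn1c, a cyclin-dependent kinase inhibitor that limits fetal growth, stood at 45.074 and 87.419 RPM in mutants 1 and 2, against 6.665 and 5.711 RPM in controls 1 and 2 (3.15, limma adjusted p = 0.0325). All 3 were higher in mutant 2 than in mutant 1, as was Mest.

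Gab1, a docking protein of growth factor receptors that is imprinted in placenta, stood at 30.412 and 32.126 RPM in mutants 1 and 2, against 8.236 and 7.861 RPM in controls 1 and 2 (log2 fold change 1.83, limma adjusted p = 0.0419). Meg3, the maternally expressed long RNA of the Dlk1 cluster, averaged 1470 ± 103 RPM in mutants and 422 ± 97.9 RPM in controls (1.81, limma adjusted p = 0.0461). Dlk1 and Meg3, like Peg3 and Zim1, are read from different parental alleles and were both higher in the mutants. The gene that fell was Ampd3, an AMP deaminase gene imprinted in placenta, at 17.869 and 14.345 RPM in mutants 1 and 2, against 144.074 and 86.624 RPM in controls 1 and 2 (-2.73, limma adjusted p = 0.0303).

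The nearest of those that did not pass were Rasgrf1, an exchange factor gene for Ras (log2 fold change 2.30, limma adjusted p = 0.0515), and Atp10a, a phospholipid transporter gene (1.64, limma adjusted p = 0.0579). These calls need both mutants: without either of them 0 genes of the whole table passed, with 427 higher and 262 lower at an unadjusted p below 0.05 without mutant 1, and 394 and 276 without mutant 2. By edgeR on whole reads 0 of the 5 risers passed, while Ampd3 passed. At an unadjusted p below 0.05, edgeR had 13 of the 36 genes higher, against 1106 of the 11638 genes tested. Without the filter on low values only Dlk1 of the 6 passed, and with another scaling (TMM or median of ratios) or without the variance trend Meg3 did not. A fit without control 1 or control 2 leaves a single control, so no count of calls is read from it. Without control 1 the log2 fold changes were 7.07 for Dlk1, 6.14 for Igf2, 3.25 for Cdkn1c, 1.86 for Gab1, 1.57 for Meg3 and -2.36 for Ampd3. Without control 2 they were 9.13, 5.52, 3.06, 1.80, 2.05 and -3.09 in the same order.

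**Figure D4:**
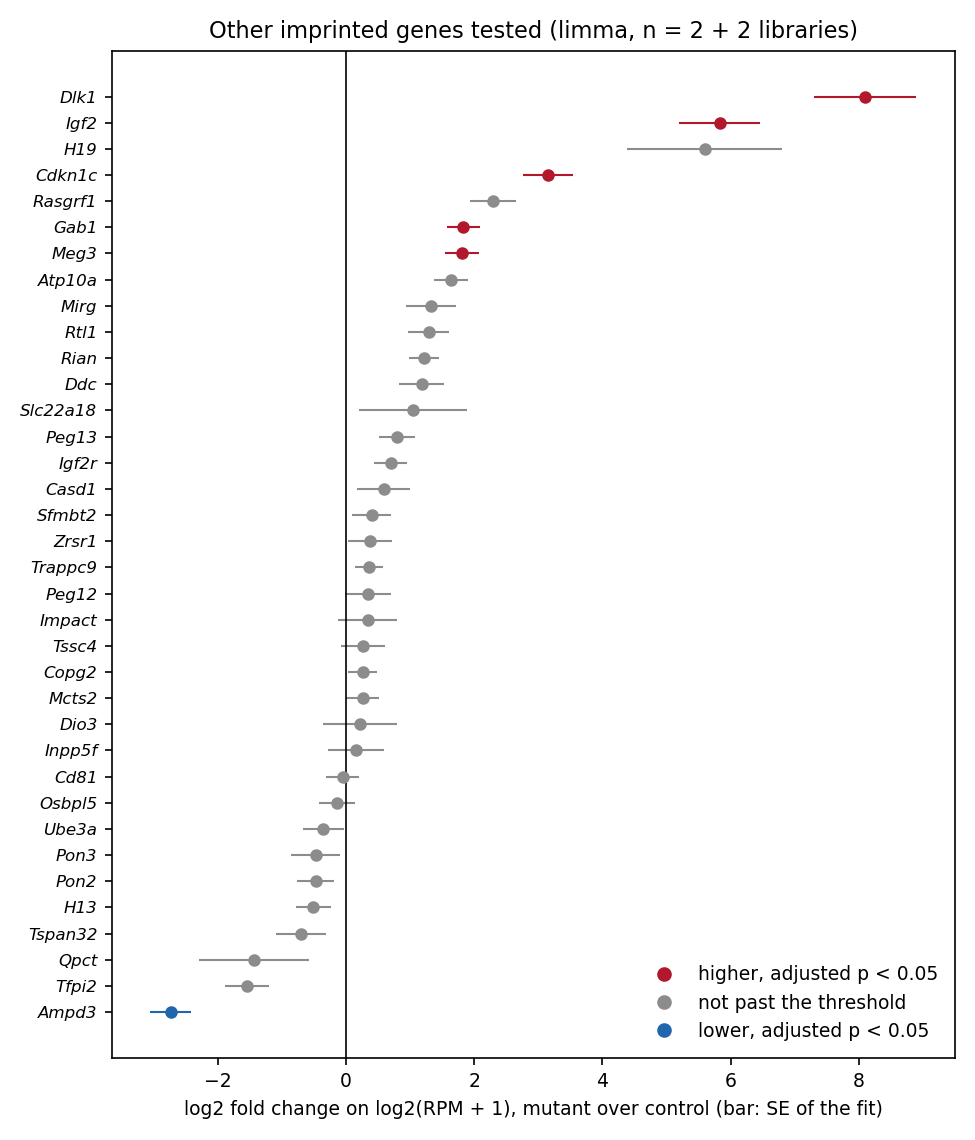
Log2 fold change (mutant over control, on log2(RPM + 1)) with the SE of the fit for the 36 other imprinted genes tested. Red marks the 5 that rose, from 1.81 (Meg3) to 8.10 (Dlk1), blue the 1 that fell (Ampd3, -2.73), and grey the 30 that did not pass.

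Genes that work with the members were taken next. The share of all tested genes that limma called was 1.73% higher and 0.576% lower. At an unadjusted p below 0.05, 1380 of the 11638 were higher and 700 lower. Of 10 tested genes that bind Grb10, belong to its family or act in the insulin signal it damps, 1 rose, 0 fell and 9 did not pass (limma, with 3 higher and 0 lower at an unadjusted p below 0.05). On whole reads edgeR called 1 and DESeq2 3 higher, and both called 0 lower. Over all 11638 genes tested edgeR called 66 higher and 27 lower, and DESeq2 598 and 493. Irs1, the docking protein of the insulin and IGF1 receptors, stood at 227.949 and 304.015 RPM in mutants 1 and 2, against 21.998 and 26.625 RPM in controls 1 and 2. The mutants were 10.9 times higher by ratio of means (log2 fold change 3.39, SE 0.25, limma adjusted p = 0.0176). Pik3r1, a regulatory subunit of phosphoinositide kinase (1.68, limma adjusted p = 0.057), and the family member Grb14 (1.02, limma adjusted p = 0.103) did not pass.

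Of 10 tested genes of the dystrophin and sarcoglycan complex to which Sgce belongs, 1 rose, 0 fell and 9 did not pass (limma; edgeR called 0 and DESeq2 2 higher, with 3 higher and 0 lower at an unadjusted p below 0.05 by limma and by edgeR). Among all tested genes limma called 1.73% higher and 0.576% lower. At an unadjusted p below 0.05, 1380 of the 11638 were higher and 700 lower by limma, and 1106 and 917 by edgeR. Utrn, the dystrophin relative of non-muscle cells, averaged 255 ± 31.8 RPM in mutants and 81 ± 7.22 RPM in controls (log2 fold change 1.64, limma adjusted p = 0.0362). Sspn, the sarcospan gene (1.68, limma adjusted p = 0.0519), and Dag1, the dystroglycan gene (0.95, limma adjusted p = 0.191), did not pass. The Utrn call ended by edgeR, without the filter on low values and without the variance trend. Its log2 fold change was 1.73 without control 1, 1.55 without control 2, 1.51 without mutant 1 and 1.77 without mutant 2.

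Genes that set or keep imprints did not pass, where limma called 1.73% of all tested genes higher and 0.576% lower. Of all 11638, 1380 were higher and 700 lower at an unadjusted p below 0.05 by limma, and 1106 and 917 by edgeR. Of 16 tested, 0 rose and 0 fell (limma and edgeR; by each of them 4 were higher and 1 lower at an unadjusted p below 0.05, and DESeq2 called 1 lower). Dnmt3l, the cofactor that sets methylation in germ cells, stood at 0.745 and 0.404 RPM in mutants 1 and 2, against 7.423 and 3.56 RPM in controls 1 and 2 (log2 fold change -1.99, limma adjusted p = 0.107). Dnmt3l passed the filter through the controls alone. It had to be lower in the mutants, so its p-value and the 1 lower gene counted above are a description. Tet1, which oxidises methylated cytosine, stood at 4.353 and 5.523 RPM in mutants 1 and 2, against 0.488 and 1.557 RPM in controls 1 and 2 (1.60, limma adjusted p = 0.146). Zfp57, which encodes the binder of the hexamer in the printed stretches and was added to the named genes with its values known, stood at 38.03 and 39.534 RPM in mutants 1 and 2, against 21.402 and 8.751 RPM in controls 1 and 2 (1.43, limma adjusted p = 0.197). The log2 fold change of Tet1 was 1.21 without control 1 and 1.99 without control 2, and in both fits Dnmt3l fell under the filter.

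By distance between centred log2(RPM + 1) values over the 4 libraries, the genes outside the set with the pattern most like Mest were Dlk1 (distance 0.68), Hhip (1.30) and Gli1 (1.70). Hhip and Gli1, which encode a Hedgehog-binding protein and a transcription factor of that pathway, stood at 210.825 and 229.19 RPM and at 158.763 and 182.921 RPM in mutants 1 and 2, with at most 0.297 RPM in either control. Most like Peg3 were Rcan2 (0.39), Pdzd2 (0.41) and Nrtn (0.43), which encode a calcineurin regulator, a PDZ domain protein and the neurotrophic factor neurturin. Rcan2 stood at 258.534 and 373.991 RPM in mutants 1 and 2, against 20.102 and 11.051 RPM in controls 1 and 2. With 4 libraries this likeness mainly restates the group difference.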

How the data were processed

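RNA of 2 mutant and 2 control libraries was measured with an Ion AmpliSeq mouse transcriptome panel, per the labels' protocols, which reads each gene through a short amplicon. The deposited table gives RPM; for the aligner, the counter and the build the entry is: not given in the sources used here. Symbols came from amplicon names. Low RPM values are multiples of 1 read, and 100% of non-zero values came out whole within 0.01 read, which gave 13483518 to 18455811 reads per library. Intervals and the floor of 3 reads cover counting error only.

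The filter asked for 1 RPM or more in 2 or more libraries and kept 11638 genes. Their log2(RPM + 1) values went into limma 3.58.1 (R 4.3.3; lmFit, then eBayes with trend). Its p-values are two-sided, adjusted by Benjamini and Hochberg's method, with a threshold of 0.05. A log2 fold change on this scale understates the change of low genes. The fit was tested on simulated data. The alternatives were other pseudocounts, filters and scalings, omission of the trend, of each library in turn, a replicate block, and edgeR 4.0.16 and DESeq2 1.42.0 on the whole reads.

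Members, lists and tests were chosen with earlier results of these data known. Named here are all members, the genes of a list past the threshold (at most 8 per direction), its 2 nearest that did not pass, and the 3 genes most like Mest and Peg3; others are marked. Lists covered other imprinted genes, imprint keeping, the sarcoglycan complex, Grb10 partners, chromosomal neighbours, sex-linked genes and markers of stromal, macrophage, endothelial, muscle, fat, keratinocyte and neural cells. Positions and promoter windows are RefSeq's (GRCm38.p6). Figures used Python 3.11.15 with matplotlib 3.10.9.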

Additional observations from a re-analysis of the deposited data

How the results depend on the processing

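All 8 members that were higher in the mutants stayed above 0 in log2 fold change in every alternative that gave a value: 6.64 to 9.19 for Mest, 3.93 to 6.64 for Plagl1, 3.86 to 4.80 for Peg3, 1.75 to 4.66 for Zim1, 0.93 to 1.88 for Peg10, 1.18 to 1.32 for Grb10, 0.57 to 1.34 for Sgce and 0.54 to 0.92 for Ndn. For those 8 genes both mutants stood above both controls. Omission of a library or another pseudocount could therefore not turn the sign, so the ranges describe size only. Asb4 ranged from -0.65 to 0.53 and changed sign. Without a mutant library, Plagl1 and Zim1 fell under the filter. The median of all tested genes was 0.08 in log2 fold change, against -0.02 by edgeR and -0.03 by DESeq2.

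The 201 genes higher and 67 lower became 56 and 18 without the filter, 66 and 27 by edgeR, and 598 and 493 by DESeq2. The 5 other imprinted genes higher and 1 lower became 1 and 0 without the filter (16 and 2 at an unadjusted p below 0.05), 0 higher by edgeR, and 9 and 2 by DESeq2. Without the filter 50 other imprinted genes were tested, and over all 19400 genes 1667 were higher and 859 lower at an unadjusted p below 0.05. With each library left out in turn, the counts ran from 0 to 1731 higher and 0 to 854 lower over all genes, and from 0 to 14 and 0 to 4 among other imprinted genes. The zeros came without either mutant (other imprinted genes at an unadjusted p below 0.05: 7 higher and 1 lower without mutant 1, 7 and 2 without mutant 2). The lone library left in a group is assumed to vary like the other group; the control libraries differ more, and the cause of these shifts was not tested. With a replicate block, 301 genes were higher and 123 lower, and 7 and 1 among other imprinted genes; the labels do not say what a shared number means, and deviations of same-numbered libraries correlated at 0.164 over genes.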

Other observations

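Several imprinted genes known mainly from placenta, brain or pancreas gave no read in any library: Phlda2, Ins2, Usp29, Klf14 and Calcr. They are 5 of the 55 measured, beside 4530 of 23930 amplicons at 0 in every library over the whole table. An amplicon that works poorly can also give no read, so nothing about tissue is read from these zeros. Igf2r, which clears IGF2 from the cell surface, stood at 372.451 and 392.916 RPM in mutants 1 and 2, against 284.03 and 193.866 RPM in controls 1 and 2 (log2 fold change 0.70, limma adjusted p = 0.257). Tfpi2, a protease inhibitor gene of the Peg10 region, stood at 1.89 and 2.155 RPM in mutants 1 and 2, against 6.773 and 8.9 RPM in controls 1 and 2 (-1.54, limma adjusted p = 0.106), on the other side of 0 from Peg10 and Sgce. All were named after their values were seen.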
